A study of Homo sapiens with 9 samples.

Results

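The 26S proteasome is the protease that degrades proteins tagged with ubiquitin. Its barrel-shaped 20S core holds outer rings of alpha subunits, which gate the channel, and inner rings of beta subunits, of which PSMB5, PSMB6 and PSMB7 carry the chymotrypsin-like, caspase-like and trypsin-like active sites. The 19S regulatory particle caps the core: its ATPases (the PSMC genes) unfold the substrate and push it into the channel, and its non-ATPase subunits (the PSMD genes) receive ubiquitin chains and remove them. Alternative caps, the activators, open the core without the 19S particle. Proteins that fail to fold in the endoplasmic reticulum (ER), where GRP78 (gene HSPA5) is the main chaperone, are extracted to the cytosol and end in the proteasome, and cells that lose proteasome activity raise the subunit genes together through the transcription factor NRF1 (gene NFE2L1).

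The RNA of 35 constitutive proteasome genes was followed in H1975, an established human lung adenocarcinoma cell line. The genes were chosen by symbol as the members of the 20S alpha ring (7 genes), the 20S beta ring (7), the 19S ATPases (6), the 19S non-ATPases (11) and the activators (4), and all 35 were found among the 61544 genes counted. All cells had first received si78, an siRNA against the 3′UTR of endogenous GRP78, for 24 h, and then a plasmid for 48 h: pcDNA3 as the empty vector, FLAG-tagged wild-type GRP78, F-78(WT), referred to as WT, or F-78(NLS Mut), referred to as NLS Mut, in which 3 lysines of the nuclear localization signal are replaced by alanine. Total RNA gave 3 libraries per group, and the depletion of endogenous GRP78 was therefore shared by all groups, with no cells on a control siRNA among the libraries analysed. No label says whether the 3 libraries of a group came from separate cultures, so p-values measure only the spread between these libraries.

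The 9 libraries held 17671055 to 27476298 reads counted on genes, and 18653 genes were deep enough to test, all 35 proteasome genes among them. HSPA5 was read at 358.5, 383.4 and 391.2 counts per 1000000 (CPM) with vector, 5031, 5814 and 6145 CPM with WT, and 4962, 5156 and 4765 CPM with NLS Mut, so each library matched its label for overexpression. The epithelial markers fixed for the cell type summed to 4357 to 5107 CPM in each library, with CDH1 lower with NLS Mut than with vector and CDH1 and KRT19 higher with WT than with NLS Mut (edgeR's quasi-likelihood test, log2 fold changes of -0.25, 0.27 and 0.23, adjusted p = 0.0437, 0.0364 and 0.0438), and the lung lineage factor NKX2-1 was at 21.5 to 31.6 CPM. Of the lung adenocarcinoma markers, the surfactant genes SFTPA1, SFTPB and SFTPC did not exceed 1.06 CPM. The leukocyte list summed to 6.75 to 10.7 CPM, with CD3E and LYZ at 0 in all libraries, and the endothelial list to 5.29 to 8.05 CPM. The vector libraries differed in how their counts related to GC content: log2 levels of all tested genes changed by -0.05 per 10 points of GC in vector replicate 1, and by 0.11 and 0.12 in replicates 2 and 3. The 6 libraries with a GRP78 plasmid ranged from -0.08 to 0.03, so replicate 1 lay among them and replicates 2 and 3 lay above the 7 others. Main results against vector are therefore also given without replicate 1 and with a correction for GC content and length. Neither is taken as the better one. Without replicate 1 the vector group holds only replicates 2 and 3, so the relation to GC content and the plasmid cannot be told apart. In that setting edgeR called 6.33% of all tested genes for WT against vector, where 0.558% were called with all libraries.

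No proteasome gene passed the test in any of the 3 comparisons. By edgeR's quasi-likelihood test with Benjamini-Hochberg adjustment over all tested genes, 0 of the 35 genes passed an adjusted p of 0.05 for WT against vector, where 0.558% of all tested genes did, 0 for NLS Mut against vector, where 0.793% did, and 0 for WT against NLS Mut, where 0.504% did. DESeq2 also called 0 in each, where it called 1.40%, 2.21% and 1.66% of all tested genes in the same order. The lowest adjusted p among the 35 was 0.208, 0.282 and 0.187 in that order. At an unadjusted p under 0.05 there were 4 of 35 for WT against vector, 3 for NLS Mut against vector and 3 for WT against NLS Mut, where 11.7%, 12.2% and 11.6% of all tested genes passed the same limit. These shares of the members were close to the background.

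The intervals show how large a change these libraries could have hidden. The median standard error of a member's log2 fold change was 0.07 in each comparison. The 95% interval lay inside ±0.3 on the log2 scale for 31 of 35 genes in both comparisons with vector and for 30 of 35 in WT against NLS Mut, and inside ±0.5 for 32, 32 and 33. PSMA2 and PSMA6 had wider intervals in every comparison, and PSMA1 in those with vector. These 3 genes had 33 to 266 reads a library, while 30 of the 35 genes had at least 1000 reads in every library. The coefficient of variation over all 9 libraries, groups included, had a median of 5.84% over the members and was under 10% for 31 of them, from 2.01% for PSMB4 to 25.5% for PSMA6.

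**Figure D1:**
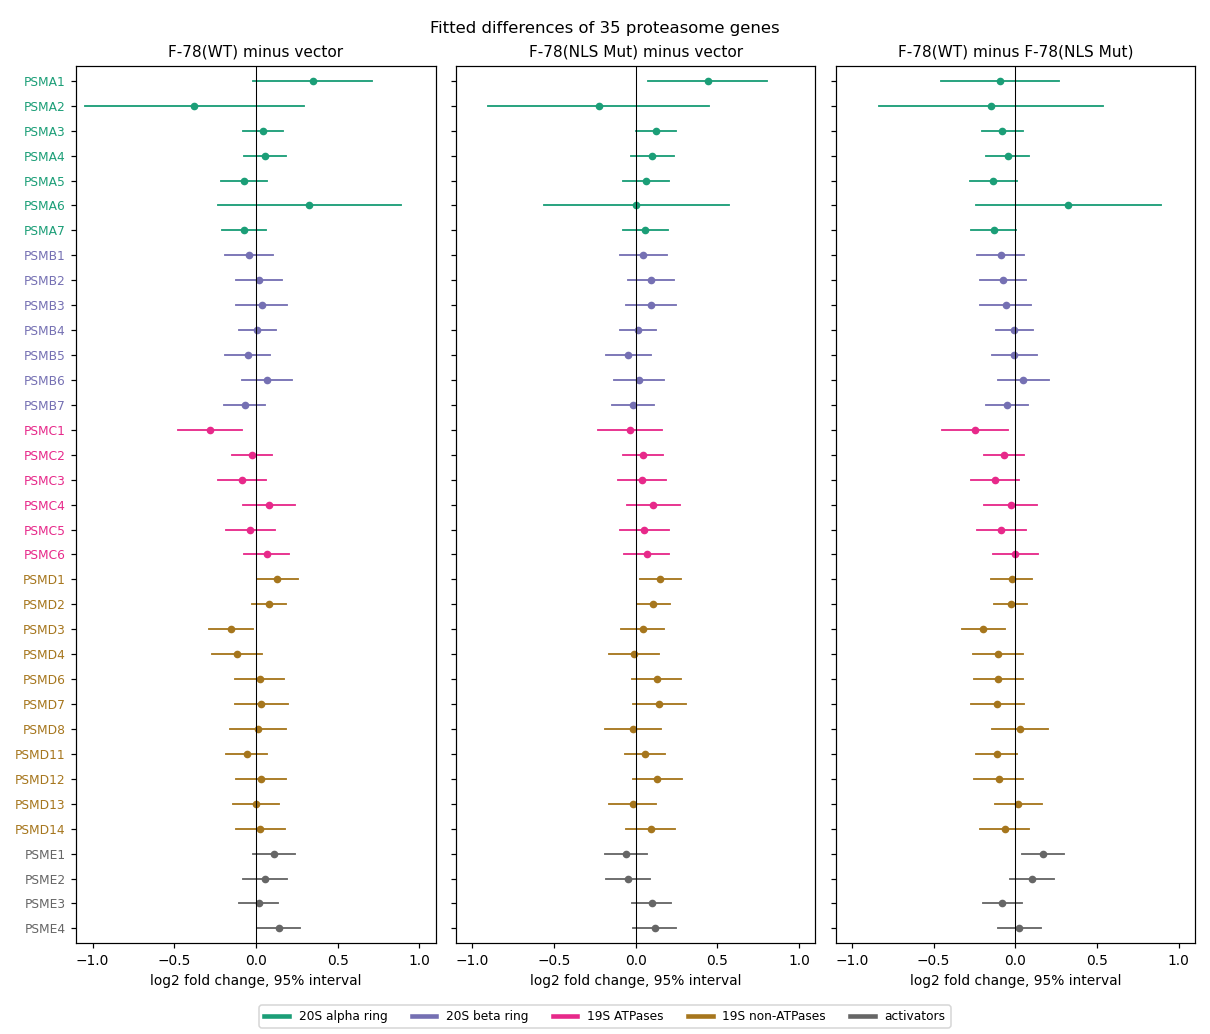
Fitted log2 fold change (points) and 95% interval (lines, unadjusted) of each of 35 proteasome genes in the 3 comparisons, coloured by subcomplex. Points cluster near 0, with the widest intervals for PSMA1, PSMA2 and PSMA6; PSMC1 and PSMD3 are the genes with intervals below 0 in both panels that contain WT.

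The sums over genes give the size of the pool. All 35 genes together took 4022, 4195 and 4260 CPM with vector, 4103, 4237 and 4210 CPM with WT, and 4275, 4428 and 4279 CPM with NLS Mut. The mean with NLS Mut was 104.1% ± 2.1 (SD, n = 3) of the vector mean and that with WT 100.6% ± 1.7, and the vector libraries themselves ranged from 96.7% to 102.4%. The 3 NLS Mut libraries lay above the 6 others by a narrow margin, 102.8% against the highest vector library at 102.4%. The lowest of the 9 was vector replicate 1. Set against the other two vector libraries alone, the mean was 102.4% ± 2.1 with NLS Mut and 99.0% ± 1.7 with WT. CPM is a share of each library's RNA, so fewer transcripts per cell and more RNA of other genes cannot be told apart.

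Counted gene by gene, 26 of 35 log2 fold changes were above 0 for NLS Mut against vector, with a median of 0.06, and 21 of 35 for WT against vector, with a median of 0.02. For WT against NLS Mut, 28 of 35 were below 0, with a median of -0.07. Over all tested genes the medians were -0.002, -0.002 and -0.005, and 49.7%, 49.5% and 48.9% were above 0 in the same order. The comparisons share libraries, so these counts are not independent of each other, and proteasome genes are not independent replicates. Whether these medians differ from those of all genes was not tested. The median for WT against vector was -0.01 with library size alone as scaling and -0.01 without vector replicate 1, so its sign was not fixed. Without vector replicate 1 the counts above 0 were 15 of 35 with WT and 21 of 35 with NLS Mut, where the median was 0.04. Without NLS Mut replicate 2 the median was 0.03 for NLS Mut against vector and -0.03 for WT against NLS Mut, and without WT replicate 1 the latter was -0.04.

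**Figure D2:**
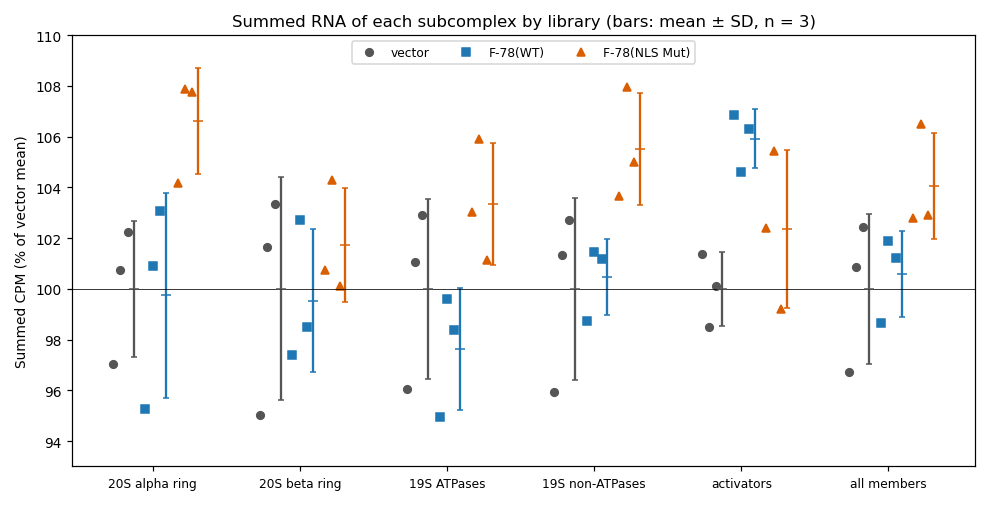
CPM summed over the genes of each subcomplex, and over all 35, in each library as a percentage of the vector mean (the axis does not start at 0); bars give the mean ± SD of 3 libraries. The alpha ring and the non-ATPases sit highest with NLS Mut, while the activators have their highest mean with WT, at 104.6% to 106.8%, with 1 NLS Mut library inside that range.

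The 20S alpha ring gates the core. PSMA3 was measured at 162.0, 171.2 and 177.8 CPM with vector, 174.8, 167.5 and 184.8 CPM with WT, and 181.7, 192.3 and 182.8 CPM with NLS Mut. Each NLS Mut library was above each vector library, while WT overlapped both, and the log2 fold change for NLS Mut against vector was 0.12 ± 0.06 (SE), with an adjusted p of 0.413, and 0.08 without vector replicate 1. PSMA5 was at 79.7, 80.4 and 81.4 CPM with vector, 72.3, 76.5 and 81.1 CPM with WT, and 87.0, 83.2 and 82.3 CPM with NLS Mut. Its WT libraries were below its NLS Mut libraries without overlap, by -0.14 ± 0.07 on the log2 scale (adjusted p = 0.464). PSMA7, the alpha subunit with the most reads, had a log2 fold change of -0.13 ± 0.07 for the same comparison (adjusted p = 0.448), and its lowest library was WT replicate 1 at 159.2 CPM. PSMA4 ranged from 109.4 to 122.4 CPM over all libraries. As a ring, the alpha genes had median log2 fold changes of 0.04 and 0.06 against vector and -0.09 between the GRP78 forms.

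The 20S beta ring holds the proteolytic sites. Its 7 genes spanned log2 fold changes of -0.07 to 0.07 for WT against vector, -0.04 to 0.09 for NLS Mut against vector and -0.09 to 0.05 between the forms, and none reached an unadjusted p of 0.05 in any comparison. PSMB5, the chymotrypsin-like subunit and the target of bortezomib, was read at 101.4, 112.7 and 114.9 CPM with vector, 100.9, 110.1 and 106.9 CPM with WT, and 110.5, 102.2 and 106.6 CPM with NLS Mut. PSMB6, the caspase-like subunit, was read at 91.4, 112.4 and 107.3 CPM with vector, 110.8, 111.0 and 105.0 CPM with WT, and 105.3, 113.2 and 97.0 CPM with NLS Mut. PSMB7, the trypsin-like subunit, was read at 174.3, 178.9 and 181.6 CPM with vector, 156.7, 182.0 and 170.9 CPM with WT, and 170.5, 176.8 and 181.4 CPM with NLS Mut. The groups overlapped for all 3 catalytic genes in all comparisons. Their 95% intervals for WT against NLS Mut ran from -0.14 to 0.13 for PSMB5, from -0.10 to 0.20 for PSMB6 and from -0.18 to 0.07 for PSMB7. PSMB4, a non-catalytic beta subunit, varied least of all members, from 226.6 to 240.3 CPM. PSMB3 had the highest log2 fold change of the ring for NLS Mut against vector, at 0.09 ± 0.08, and PSMB1 the lowest between the forms, at -0.09 ± 0.07.

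Among the 19S ATPases, PSMC1 carried the lowest values of its group in both comparisons with WT. It was at 51.2, 56.0 and 56.9 CPM with vector, 37.8, 53.1 and 44.0 CPM with WT, and 50.1, 57.0 and 52.9 CPM with NLS Mut. WT replicates 1 and 3 were the lowest of the 9, and replicate 2 overlapped the other groups. The log2 fold change was -0.28 ± 0.10 against vector (adjusted p = 0.208) and -0.25 ± 0.10 against NLS Mut (adjusted p = 0.293). Against vector the adjusted p was 0.0363 without vector replicate 1 and 0.0193 without WT replicate 2. The value changed with how reads were counted. PSMC1 (chromosome 14, 90256495 to 90275429, plus strand, GRCh38) shares 82.1% of its principal transcript with exons of NRDE2 on the opposite strand, and the unstranded counts leave out reads that lie on 2 genes.

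With the counts of both strands summed, which gives a read in the shared part to each of the 2 genes, PSMC1 had 3.26 times as many reads. It was then at 164.8, 162.1 and 169.4 CPM with vector, 162.5, 171.7 and 162.7 CPM with WT, and 166.9, 175.9 and 173.6 CPM with NLS Mut. Counted that way, WT and vector overlapped and the log2 fold change was 0.01 ± 0.06 (adjusted p = 0.966), and -0.05 ± 0.06 against NLS Mut (adjusted p = 0.836). The summed counts include reads of NRDE2, which was at 34.0 to 42.1 CPM on its own unshared sequence. PSMC5, which shares 27.2% of its transcript with FTSJ3, had 1.5 times as many reads when the strands were summed, and its log2 fold change for WT against vector was -0.03 ± 0.07 unstranded and -0.05 ± 0.07 summed.

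**Figure D3:**
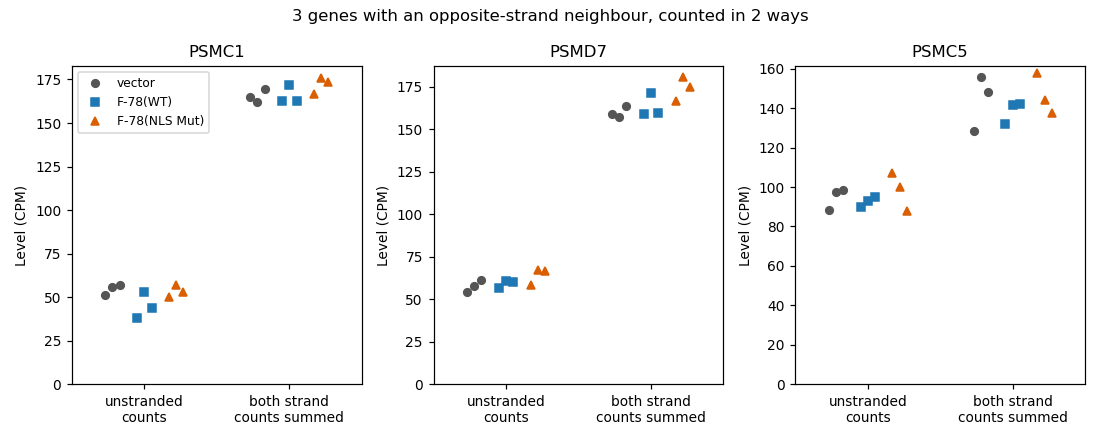
CPM of PSMC1, PSMD7 and PSMC5 in each library with the unstranded counts and with the counts of both strands summed (axes start at 0). The 2 low WT libraries of PSMC1, at 37.8 and 44.0 CPM, lie at 162.5 and 162.7 CPM once the strands are summed, among the vector libraries.

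The other ATPases had no opposite-strand neighbour over the principal transcript. PSMC2 was at 146.9 to 164.2 CPM and PSMC6 at 87.7 to 98.3 CPM over all libraries. PSMC3 was at 92.1, 113.5 and 111.5 CPM with vector, 101.3, 101.7 and 96.6 CPM with WT, and 108.1, 108.9 and 109.3 CPM with NLS Mut. Its WT and NLS Mut libraries did not overlap, at -0.12 ± 0.07 on the log2 scale (adjusted p = 0.541), and its lowest library was vector replicate 1. PSMC4 had the highest log2 fold change of the group in both comparisons with vector, 0.08 ± 0.08 with WT and 0.11 ± 0.08 with NLS Mut. All 6 ATPases were below 0 for WT against NLS Mut, with PSMC6 nearest to 0 at -0.001 and the sign of PSMC6 changing with the processing.

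The 19S non-ATPases include PSMD1 and PSMD2, the large scaffold subunits of the particle's base, PSMD4, a ubiquitin receptor, and PSMD14, the deubiquitinase that removes the chain. PSMD1 was at 128.8, 136.2 and 131.4 CPM with vector, 136.8, 145.9 and 151.4 CPM with WT, and 147.4, 147.1 and 145.9 CPM with NLS Mut. All 6 libraries with a GRP78 plasmid were above all 3 vector libraries, with log2 fold changes of 0.13 ± 0.06 (adjusted p = 0.404) and 0.15 ± 0.06 (adjusted p = 0.286). PSMD2 showed the same order, at 378.0, 394.8 and 386.0 CPM with vector, 416.3, 398.3 and 410.3 CPM with WT, and 414.0, 423.0 and 412.8 CPM with NLS Mut. Its log2 fold changes were 0.08 ± 0.05 (adjusted p = 0.572) and 0.11 ± 0.05 (adjusted p = 0.373). Without vector replicate 1 the values were 0.11 and 0.13 for PSMD1 and 0.06 and 0.09 for PSMD2, again with none past the test. Both comparisons use the same vector libraries.

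PSMD3, a scaffold subunit of the lid, had the lowest adjusted p of any member. It was at 154.1, 176.0 and 169.9 CPM with vector, 140.5, 161.0 and 148.3 CPM with WT, and 167.7, 174.0 and 173.5 CPM with NLS Mut. The WT libraries lay below the NLS Mut libraries without overlap, and overlapped the vector libraries through vector replicate 1. The log2 fold change was -0.20 ± 0.06 against NLS Mut (adjusted p = 0.187, 95% interval -0.33 to -0.06), and -0.15 ± 0.06 against vector (adjusted p = 0.339). After a correction for GC content and length the first was -0.19 ± 0.05 with an adjusted p of 0.0467, the single member called in that setting, in which 2.12% of all tested genes were called. Without vector replicate 1 the second was -0.21 ± 0.06 with an adjusted p of 0.0261.

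PSMD4 was at 143.0, 175.8 and 181.0 CPM with vector, 142.4, 167.5 and 151.0 CPM with WT, and 160.9, 166.3 and 169.9 CPM with NLS Mut. Vector replicate 1 was about as low as the lowest WT library, and the log2 fold change for WT against vector was -0.12 ± 0.07 (adjusted p = 0.578). PSMD7, which shares 50.4% of its transcript with a gene on the opposite strand (ENSG00000259972), had 2.74 times as many reads with the strands summed. Its log2 fold change for NLS Mut against vector was 0.14 ± 0.08 unstranded (adjusted p = 0.485) and 0.12 ± 0.06 summed (adjusted p = 0.402). PSMD12 was at 115.8, 102.1 and 112.8 CPM with vector and 116.2, 124.2 and 121.7 CPM with NLS Mut, without overlap, at 0.13 ± 0.07 (adjusted p = 0.488). PSMD14 was at 73.1 to 85.0 CPM, PSMD13 at 76.7 to 86.1 CPM, PSMD6 at 85.3 to 107.3 CPM and PSMD8 at 76.0 to 102.0 CPM over the 9 libraries. For PSMD11 the WT libraries, at 131.6, 133.9 and 138.2 CPM, lay below the NLS Mut libraries, at 148.7, 149.1 and 139.4 CPM (log2 fold change -0.12 ± 0.06, adjusted p = 0.481).

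Of the activators, 3 of 4 were above 0 for WT against NLS Mut, and whether they differ from the other subcomplexes was not tested. PSME1 and PSME2 form PA28αβ, the interferon-inducible cap that favours the release of antigenic peptides. PSME1 was at 184.6, 178.7 and 193.6 CPM with vector, 195.3, 196.6 and 209.6 CPM with WT, and 181.6, 188.1 and 164.4 CPM with NLS Mut. Its 3 WT libraries were the highest of the 9, and the log2 fold change was 0.17 ± 0.06 against NLS Mut (adjusted p = 0.242, 95% interval 0.04 to 0.30) and 0.11 ± 0.06 against vector (adjusted p = 0.503). PSME2 had values of 0.10 ± 0.07 (adjusted p = 0.590) and 0.06 ± 0.07 (adjusted p = 0.805). PSME3 encodes PA28γ, the nuclear activator, and was at 177.9, 181.7 and 179.2 CPM with vector, 191.5, 180.4 and 173.4 CPM with WT, and 192.0, 194.3 and 190.2 CPM with NLS Mut. All NLS Mut libraries were above all vector libraries, at 0.10 ± 0.06 (adjusted p = 0.526). PSME4 encodes PA200, an activator also found in nuclei. It was at 167.8, 145.7 and 143.5 CPM with vector, 171.9, 160.7 and 170.7 CPM with WT, and 163.7, 167.5 and 163.8 CPM with NLS Mut. The log2 fold change against vector was 0.14 ± 0.06 with WT (adjusted p = 0.390) and 0.12 ± 0.06 with NLS Mut (adjusted p = 0.485). Between the forms it was 0.02 ± 0.06 (adjusted p = 0.937). The high vector library was replicate 1, and without it the value for WT against vector was 0.21 ± 0.06 with an adjusted p of 0.0176.

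**Figure D4:**
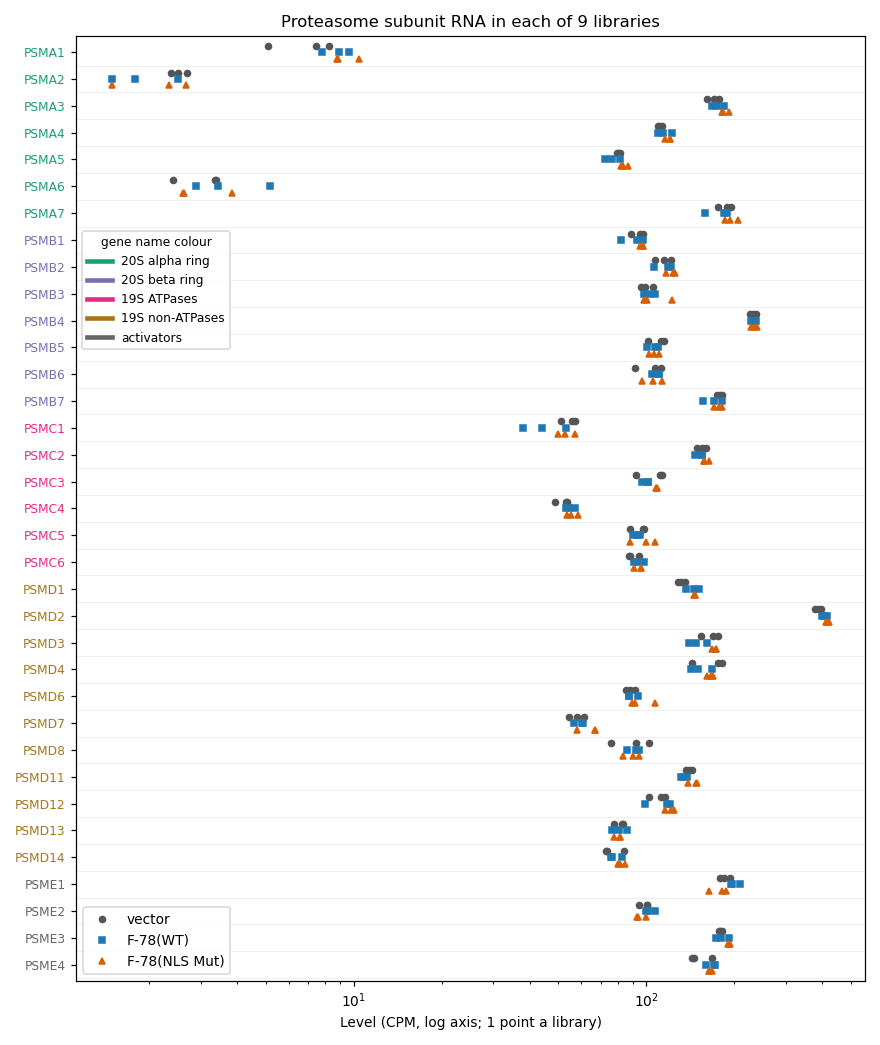
CPM of each of the 35 genes in each library (log axis), 3 points a group, with gene names coloured by subcomplex. Most genes lie between 50 and 200 CPM with the groups on top of each other; PSMD2 is highest at 378.0 to 423.0 CPM, and PSMA1, PSMA2 and PSMA6 lie at 1.49 to 10.4 CPM.

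Groups of 3 libraries failed to overlap for few members in total. Higher values without overlap were found for 3 of 35 genes with WT against vector (PSMD1, PSMD2 and PSME1), where 6.53% of all tested genes did the same, and lower values for 0, against 6.54%. With NLS Mut against vector the count was 8 higher (PSMA1, PSMA3, PSMA4, PSMA5, PSMD1, PSMD2, PSMD12 and PSME3), against 9.28% of all tested genes, and 0 lower, against 8.82%. With WT against NLS Mut it was 1 higher (PSME1), against 8.25%, and 5 lower (PSMA5, PSMC2, PSMC3, PSMD3 and PSMD11), against 9.42%. The 8 higher members with NLS Mut were a larger share of the members than the background, but each missed the threshold of the test across all genes. Without vector replicate 1, WT had 5 members higher and 7 lower, against 16.5% and 17.3% of all tested genes. NLS Mut then had 11 higher and 5 lower, against 19.1% and 19.3%.

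Without vector replicate 1, 4 members passed the adjusted p for WT against vector: PSMC1, PSMD3 and PSMD4 were lower and PSME4 was higher. In that setting 6.33% of all tested genes were called. PSMD4 was at -0.22 ± 0.06 with an adjusted p of 0.0237. Across the 33 members with at least 100 reads in every library, a member's deviation from its own mean level had a Spearman correlation with its GC content of -0.51 in vector replicate 1, 0.61 in vector replicate 2 and 0.45 in vector replicate 3, and of -0.27 to 0.11 in the other 6 libraries. The members' GC content ran from 36.9% to 56.7%. The part of GC content in these 4 calls was not tested. With the GC and length correction in all 9 libraries, PSMC1 alone of the 4 had an unadjusted p under 0.05 for WT against vector (-0.32 ± 0.09). In all 9 libraries, the GC and length correction gave 0 calls against vector. The lowest adjusted p fell below that of the fit without it, to 0.0800 for WT, at PSME1 (0.21 ± 0.06), and to 0.0586 for NLS Mut, at PSMD2 (0.16 ± 0.04). At an unadjusted p under 0.05 there were 8 of 35 members with WT, where 11.4% of all tested genes passed, and 9 of 35 with NLS Mut, where 12.3% did. All 9 were above 0, and of the 8 all but PSMA5 and PSMC1 were. Most of all tested genes at that limit were also above 0 in this setting. With NLS Mut 1608 were higher and 678 lower, and with WT 1386 were higher and 742 lower.

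Levels can be compared between genes only per length. On the scale of CPM per kilobase of the annotated principal transcript that no other gene shares, PSMB4 was highest, at 240.8 ± 5.7 (SD, n = 3) with vector, and its lowest library, 235.0, was above every library of every other member. Below it PSME1, PSMA7, PSME3, PSMA3 and PSMB7 had overlapping ranges, with vector means of 175.6 to 187.9. The catalytic genes with vector were at 181.9 ± 3.8 for PSMB7, 121.7 ± 12.9 for PSMB6 and 84.7 ± 5.6 for PSMB5, ranges that did not overlap in the 9 libraries. The ATPases ran from 82.6 for PSMC5 to 32.6 for PSMC4. Genes with a long principal transcript came low on this scale, such as PSMA4 (4411 bases) at 25.2 and PSMA5 (3729 bases) at 21.6, and it was not tested whether the cells use those transcripts.

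PSMA6, PSMA1 and PSMA2 came last, at 15.5 ± 2.8, 9.8 ± 2.3 and 3.7 ± 0.2 CPM per kilobase with vector, although each is a subunit that every proteasome needs. Of their principal transcripts 81.0%, 53.2% and 54.1% is shared with other genes. Each has a partner annotated on its own strand (ENSG00000258790, ENSG00000256206 and ENSG00000256646), and PSMA2 also has neighbours on the opposite strand. The 3 same-strand partners had at most 0.23 CPM. Reads on 2 genes were set aside as ambiguous in the deposited counts and made up 9.12% to 9.81% of all reads. Summing the strands gave 1.00 times as many reads for PSMA1 and PSMA6 and 1.60 times for PSMA2. It can recover reads shared with an opposite-strand gene, but not those shared with a same-strand partner. Whether the sharing accounts for the low counts was not tested. PSMC1 and PSMD7, also over 50% shared but with genes on the opposite strand, were at 68.9 and 69.9 with vector on this scale. Intervals for the 3 genes reached from -1.05 to 0.89, so large changes in them could have been missed. PSMA1 had a log2 fold change of 0.44 ± 0.18 for NLS Mut against vector (adjusted p = 0.282), from 7.4, 8.2 and 5.1 CPM to 8.9, 10.4 and 8.8 CPM. Of 39 pseudogenes named for members, 7 reached 10 reads in any library, and the largest had 6.72% of the reads of its parent, PSMA6.

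**Figure D5:**
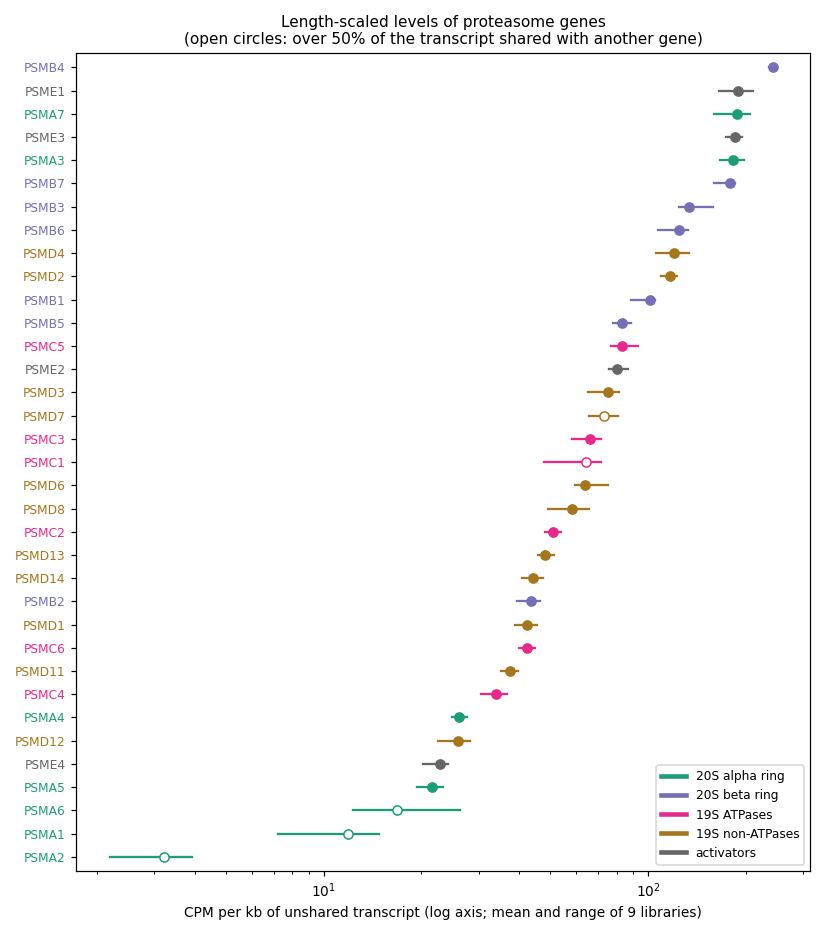
CPM per kilobase of unshared principal transcript for each member (log axis), as the mean (circle) and range (line) of 9 libraries, ordered by the mean. Open circles mark the 5 genes with over 50% of the transcript shared with another gene; 3 of them, PSMA6, PSMA1 and PSMA2, are the lowest of the 35.

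Subunits outside the constitutive set were read from lists of related genes. PSMB8, PSMB9 and PSMB10 replace PSMB5, PSMB6 and PSMB7 in the immunoproteasome. PSMB9 was at 82.7, 87.1 and 89.7 CPM with vector, 71.1, 80.9 and 75.8 CPM with WT, and 87.8, 77.5 and 83.2 CPM with NLS Mut. WT lay below vector without overlap, at -0.19 ± 0.07 (adjusted p = 0.282). PSMB10, which shares 45.3% of its transcript with another gene, was at 5.64, 11.3 and 9.25 CPM with vector and 3.39, 6.36 and 5.21 CPM with WT, at -0.81 ± 0.22 (adjusted p = 0.0965). Without vector replicate 1 PSMB10 was at -1.04 and -0.69 with WT and NLS Mut against vector, and both passed (adjusted p = 0.00148 and 0.0457). In that setting 6.33% and 5.05% of all tested genes were called. PSMB10 has a GC content of 62.0%, and the part of GC content in these calls was not tested. With all libraries, all 3 inducible genes were below 0 in all 3 comparisons and 0 passed the test. Per kilobase, PSMB9 was at 0.91 ± 0.07 (SD, n = 3) of PSMB6 with vector, 0.76 ± 0.05 with WT and 0.86 ± 0.10 with NLS Mut, and PSMB8 at 0.76 ± 0.03, 0.73 ± 0.04 and 0.75 ± 0.07 of PSMB5. PSMB11 of the thymus and PSMA8 of the testis had 0 reads in every library.

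Of the genes that surround the proteasome, few passed the test. The 3 other subunits and inhibitor, 9 assembly factors, 9 associated factors and 6 shuttle factors had 0 calls in each comparison by edgeR, and 0 to 2 genes per list and comparison at an unadjusted p under 0.05. Over all tested genes, 0.504% to 0.793% were called and 11.6% to 12.2% passed the unadjusted limit, so lists this short would hold few either way. The lowest adjusted p among the shuttles was 0.0629, for SQSTM1 (p62, an autophagy receptor) with WT against vector, at -0.24 ± 0.06. DESeq2 called this one gene of the 4 lists, with an adjusted p of 0.0185, in a comparison where it called 1.40% of all tested genes. Without vector replicate 1, where 6.33% of all tested genes were called, edgeR gave -0.31 with an adjusted p of 0.000103. With the GC and length correction edgeR gave -0.16 with an adjusted p of 0.112. UCHL5, a deubiquitinase of the 19S particle, was at 0.22 ± 0.08 for NLS Mut against vector (adjusted p = 0.200). UBA6, an alternative ubiquitin-activating enzyme, was the 1 of 6 ubiquitin genes called, for NLS Mut against vector, where 0.793% of all tested genes were. It was at 207.9, 186.3 and 177.3 CPM with vector and 227.3, 236.7 and 223.9 CPM with NLS Mut, and rose by 0.27 ± 0.06 (adjusted p = 0.0264). With WT, at 211.5, 205.3 and 213.9 CPM, it was at 0.14 ± 0.06 (adjusted p = 0.342). The value with WT was 0.21 without vector replicate 1 (adjusted p = 0.0132) and 0.04 with the GC and length correction (adjusted p = 0.842). The call for UBA6 with NLS Mut was lost with the GC and length correction, at 0.15 with an adjusted p of 0.121. It was also lost without any one of vector replicates 2 or 3, WT replicate 3 or each NLS Mut replicate (adjusted p = 0.0520 to 0.266).

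In the NRF1 list of 11 genes, 1 gene changed against vector, with either GRP78 form, where 0.558% and 0.793% of all tested genes were called. At an unadjusted p under 0.05 there were 4 of 11 genes with WT and 3 of 11 with NLS Mut, where 11.7% and 12.2% of all tested genes passed. MAFK, a small MAF protein that pairs with NRF1 and NRF2 on DNA, was at 59.5, 64.1 and 70.8 CPM with vector, 41.8, 51.1 and 45.9 CPM with WT, and 51.0, 45.1 and 51.5 CPM with NLS Mut. It fell by 0.49 on the log2 scale with WT (SE 0.09, adjusted p = 0.00631) and by 0.40 with NLS Mut (SE 0.09, adjusted p = 0.0235), both against the same vector libraries, and the forms did not differ past the test (-0.08 ± 0.09, adjusted p = 0.795). The first call was lost without vector replicate 3 (adjusted p = 0.0809), WT replicate 1 (0.101) or WT replicate 3 (0.0543), and with the GC and length correction the value was -0.29 with an adjusted p of 0.0372. The second was lost with the GC and length correction (-0.23, adjusted p = 0.116) and without vector replicate 2 or 3 or any NLS Mut replicate, with an adjusted p of 0.0805 to 0.239. NFE2L1, which encodes NRF1 itself, was at 266.5, 289.4 and 298.0 CPM with vector, 237.0, 256.1 and 236.9 CPM with WT, and 270.7, 253.0 and 257.9 CPM with NLS Mut. WT lay below vector without overlap, at -0.23 ± 0.06 (adjusted p = 0.0671 by edgeR, 0.0162 by DESeq2). For this comparison DESeq2 called 1.40% of all tested genes and edgeR 0.558%. Without vector replicate 1, where 6.33% of all tested genes were called, NFE2L1 was at -0.27 with an adjusted p of 0.000897. With the GC and length correction it was at -0.16 with an adjusted p of 0.0904. NFE2L2, which encodes NRF2, had NLS Mut above vector without overlap, at 0.20 ± 0.07 (adjusted p = 0.175), and was at 0.11 ± 0.07 with WT (adjusted p = 0.544). With WT, UFD1, a cofactor of the VCP segregase, was at 0.18 ± 0.09 (adjusted p = 0.410) and MAFF, another small MAF protein, at -0.26 ± 0.11 (adjusted p = 0.353). DDI2, the protease that activates NRF1, and NGLY1, which deglycosylates it, were within ±0.14 of 0 on the log2 scale in every comparison.

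NRF1 binds antioxidant response elements, written TGACNNNGC with N for any base, and these letters were searched on both strands of the RefSeq promoters, from 250 bases before to 50 after the start (GRCh38.p14). Promoters were held for 30 of the 35 members. The element was in 8 of 30, or 26.7%, and in 13.3% of all 35116 promoters. The CCAAT box was in 15 of 30, or 50%, against 34.6%, and the letters CACGTG, one form of the E-box, in 2 of 30, or 6.67%, against 7.26%. A match is only a run of letters. The 6 elements that lay before the start are shown in windows of 30 bases on the gene's strand, with the element in capitals, since they belong to genes with the largest values above as well as to steady ones.
PSMD3 (chr17:39980760-39980789, plus strand): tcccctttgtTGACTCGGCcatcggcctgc
PSME1 (chr14:24136098-24136127, plus strand): atggcagggcTGACCCCGCctcctccatcc
PSME2 (chr14:24146766-24146795, minus strand): ccctggactgTGACCCAGCcagcaccgcct
PSME4 (chr2:53971008-53971037, minus strand): cccggcggctGCAGCGTCAccagcagagcc
PSMB3 (chr17:38752627-38752656, plus strand): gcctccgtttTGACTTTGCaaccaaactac
PSMD12 (chr17:67366723-67366752, minus strand): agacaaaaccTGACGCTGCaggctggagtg
The element begins 37 bases before the start in PSMD3, 86 in PSME1, 175 in PSME2, 34 in PSME4, 104 in PSMB3 and 165 in PSMD12, and in PSME4 it reads on the opposite strand. The 8 genes that hold it did not all share a direction. For WT against NLS Mut, PSMD3 had a log2 fold change of -0.20 and PSME1 one of 0.17. With WT against vector, PSMD3 was at -0.15, and PSMB3, PSMC4, PSMD1, PSMD12, PSME1, PSME2 and PSME4 were at 0.03 to 0.14. With NLS Mut against vector, PSME1 and PSME2 were at -0.06 and -0.05, and the other holders at 0.04 to 0.15. None of these values passed the test, and whether holders differ from other members was not tested.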

How the data were processed

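RNA-Seq of 9 H1975 libraries was analysed, 3 each of the vector, WT and NLS Mut groups, grouped by the sample titles. For each library, the authors deposited a table of unnormalized read counts by gene, in STAR's layout. The submitters' processing notes name STAR 2.7.9a, DESeq2 1.36.0 and GRCh38.p14. The unstranded column was used, because the forward strand held 50.6% to 51.9% of reads. The 4 summary lines (27.6% to 30.7% of reads) name no gene and were left out. Coordinates, principal transcripts, GC content and exon overlaps came from GENCODE release 29 (GRCh38), which may not be the release behind the deposited counts, so overlaps may differ; 58342 of 61544 genes matched.

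Genes were filtered with filterByExpr, scaled by TMM and tested with edgeR 4.0.16 (glmQLFit and glmQLFTest, R 4.3.3) in one fit of all 9 libraries. Adjusted p-values are Benjamini-Hochberg over 18653 genes, with a threshold of 0.05. SE is |log2 fold change| / √F, and intervals use the fit's degrees of freedom. CPM uses TMM library sizes. The code was tested on simulated data. The median biological coefficient of variation was 11.2%. Replicates differed beyond sampling noise (chi-square per degree of freedom 3.55 to 12.6). An exact permutation test of 3 against 3 could not go below p = 0.10, so none was used.

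The 35 members and the other gene lists were chosen with earlier results of these data known. Named genes were members called in any comparison, the highest and lowest of each subcomplex, the 5 lowest p per comparison, the catalytic PSMB5, PSMB6 and PSMB7, and called genes of the other lists; further members are given by range or because their groups did not overlap, chosen after their values were seen. Alternatives were DESeq2 1.42.0, its size factors, library size alone, other filters, both strands summed, only the 2 groups compared, a replicate block, a GC and length correction, and leaving out each library.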

Additional observations from a re-analysis of the deposited data

How the results depend on the processing

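Of the counts of called members and the member medians, 158 of 162 values under 18 alternatives kept within 1.5 times the count or 1 SD of the median. The exceptions were WT against vector, where leaving out a library gave 0 to 1 members higher and 0 to 3 lower, and WT against NLS Mut, where the GC and length correction gave 1 lower. Leaving out a library moved the median between -0.01 and 0.04 for WT against vector, between 0.03 and 0.07 for NLS Mut against vector and between -0.08 and -0.03 for WT against NLS Mut, and both values nearest 0 in the last comparisons came without NLS Mut replicate 2. Library size alone gave 0.03 for NLS Mut against vector. The SD set as the limit, pooled within groups, was 0.04, more than the main median of 0.02 for WT against vector. That median therefore counted as kept even where its sign changed. The block on replicate number changed no call of a member: the medians with it were 0.02, 0.06 and -0.07. In their deviations, same-numbered libraries of different groups correlated at -0.02 to 0.06, and other pairs at -0.05 to 0.02. Of all tested genes, the block called 1.24% for WT against vector, 1.23% for NLS Mut against vector and 1.14% for WT against NLS Mut. Without it the shares were 0.558%, 0.793% and 0.504%. Whether the numbers pair the libraries was not tested.

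Among named genes, 30 values changed sign, none of them past the threshold. With both strands summed, PSMC1 was at 0.010 and 0.058 against vector and PSMA2 at 0.20 with NLS Mut. PSME3 was at -0.011 with library size alone. With the GC and length correction, PSMB5, PSMD13 and PSME1 were at 0.039, 0.017 and 0.023 for NLS Mut against vector. For WT against NLS Mut, PSMC6 was at 0.00470 with DESeq2, 0.00487 with its size factors, 0.0013 without a filter, 0.00448 with at least 1 CPM in 3 libraries, 0.0070 with the strands summed, 0.00461 with the 2 groups alone and 0.0063 with the GC and length correction. Leaving out a library gave -0.014 to 0.14 for PSMB6 and -0.020 to 0.053 for PSME3 with WT against vector. It gave -0.022 to 0.14 for PSMB3, -0.093 to 0.0022 for PSMC1 and -0.056 to 0.0018 for PSMD13 with NLS Mut against vector. Between the forms it gave -0.38 to 0.042 for PSMA2, -4.5e-05 to 0.11 for PSMB6, -0.026 to 0.027 for PSMC6 and -0.014 to 0.077 for PSMD8. The cause was not tested. Depth limited PSMA1, PSMA2 and PSMA6.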

Other observations

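How members moved together was described without a reference from pairs of other genes. Over the 9 libraries, which share their depth, scaling and GC pattern, the median Pearson correlation of log2 CPM was 0.26 over 107 pairs of genes of the same subcomplex and 0.23 over 421 pairs of different subcomplexes, among the 33 members with at least 100 reads in every library. The pair with the highest value was PSMB7 and PSMC1 at 0.91, and the lowest was PSMB5 and PSME4 at -0.84. PSMD7 followed the others most, with a median of 0.45, while PSME4 was at -0.15 and PSME1 at -0.06. All these correlations use the unstranded counts. PSMC1 and PSMD7 share 82.1% and 50.4% of their transcripts with other genes, and their correlations with the strands summed were not measured. Within the activators the median over 6 pairs was -0.02.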
